A study of Danio rerio with 24 samples.

Results

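The nuclear receptor family is described here in the liver of adult zebrafish exposed to mercuric chloride. Members were taken by gene symbol: the NR0B, NR1, NR2, NR3, NR4, NR5 and NR6 symbols and the receptors for retinoic acid, 9-cis retinoic acid (RXR), fatty acids (PPAR), thyroid hormone, vitamin D, oestrogen (esr2 only) and progesterone, the ROR and ERR orphan receptors and the androgen receptor. The esr1 and nr3c1 genes and the PPAR coactivators were left out. The rule found 40 genes on 56 probes, out of 5355 named genes and 16340 probes on the array, and each gene was read from its brightest probe. One of the 40, thrap3b, is no receptor but a protein associated with the thyroid hormone receptor whose symbol begins with the same letters, so 39 members are receptors.

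Each array compared liver RNA of 1 pool of 4 fish, labelled with Cy5, with a common reference pool of liver RNA from wild-type males and females, labelled with Cy3. The 12 HgCl2 arrays came from fish kept in 200 µg/L HgCl2 for 8, 24, 48 or 96 h, and the 12 control arrays from fish kept without it for the same times, with 3 arrays for each of the 8 groups. All fish were adults of 6 months to 1 year of age from a local farm. The sex of the pooled fish is not given in the labels, and no dye swap was made.

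Nuclear receptors are transcription factors that bind a small fat-soluble ligand, such as a hormone, a vitamin derivative, a fatty acid or a sterol, and then change which coactivators or corepressors they hold on their target genes. Many of them bind DNA as a pair with an RXR, so that the RXRs are shared by the thyroid hormone, retinoic acid, PPAR, liver X and vitamin D receptors. In the liver the family governs fat, sterol, bile acid and foreign compound metabolism. Zebrafish often carry a pair of genes, a and b, where mammals carry a single one.

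Values are log2 ratios of the liver sample over the reference pool, a difference is the HgCl2 mean minus the control mean of these ratios, and a gene is called where limma's moderated test gave an adjusted p under 0.05 over all 16340 probes. All 6 measured hepatocyte markers were above background on 24 of 24 arrays, with sample signals between the 97.5th and the 100th percentile of all probes. Markers of other tissues were detected too: 3 of 4 exocrine pancreas, 4 of 4 red blood cell, 3 of 6 ovary and 4 of 6 intestine markers were above background on 24 of 24 arrays, with the egg coat gene zp3 at percentile 98.2 and the trypsin gene prss1 at 95.3. By the pattern of the reference channel, which should carry the same RNA everywhere, the arrays fell into 4 sets. These sets held 8 and 4 control arrays and 4 and 8 HgCl2 arrays, and none held both treatments, so the set and the treatment cannot be told apart. In each treatment the 8 h and the 96 h arrays lay in different sets, so between these times set and time cannot be told apart either. The HgCl2 24 h and control 48 h groups mixed sets: HgCl2 24 h replicate 1 lay with the 8 h arrays, and control 48 h replicate 3 with the 96 h arrays. Arrays of a group correlated at r = 0.292 to 0.713 over all probes. Of the 40 members, 36 were above background in the sample channel on at least 20 arrays and 29 in the reference channel on at least 12.

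Most members that moved had a lower ratio after HgCl2. In these bulk samples fewer cells of a type and less RNA per cell cannot be told apart. A lower ratio can also come from a higher reference channel, and the channels are set out further below. Over the 4 times, 14 of 40 members were lower and 3 were higher, where 13.8% of all probes were lower and 17.7% higher. The 14 lower members were rxrbb, rxrga, rarab, thraa, thrb, pparg, ppardb, nr1d2b, rorab, nr2f1a, nr2f1b, nr6a1a, esr2a and pgr. The higher ones were rxrab, nr2f6b and thrap3b. The median difference was -0.20 over the members and -0.00 over all named genes, and 29 of 40 members had a negative difference. Of the 17 called members, 13 had the sign of their mean at all 4 times. The 17 were chosen by that mean, so this agreement is partly fixed by the choice. Its rate over all called probes was not taken. The 23 uncalled members had mean differences between -0.49 (nr2f5, adjusted p = 0.062, limma) and 0.32 (nr1d2a, adjusted p = 0.18, limma).

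At single times few members were called. At 8 h, 0 members were higher and 1 was lower, beside 0.624% and 0.349% of all probes. At 24 h, 2 members were higher and 4 lower, beside 6.61% and 4.23%. At 48 h, 1 was higher and 2 lower, beside 5.29% and 3.37%, and at 96 h, 1 was higher and 3 lower, beside 7.48% and 5.42%. The members called lower made up 2.5, 10, 5 and 7.5% of the 40 at 8, 24, 48 and 96 h, and those called higher 0, 5, 2.5 and 2.5%, which rest on 0 to 4 genes each. At an unadjusted p under 0.05, limma gave 4, 15, 10 and 8 of 40 members at 8, 24, 48 and 96 h, beside 12.8, 25.3, 24.4 and 28.1% of all probes.

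**Figure D1:**
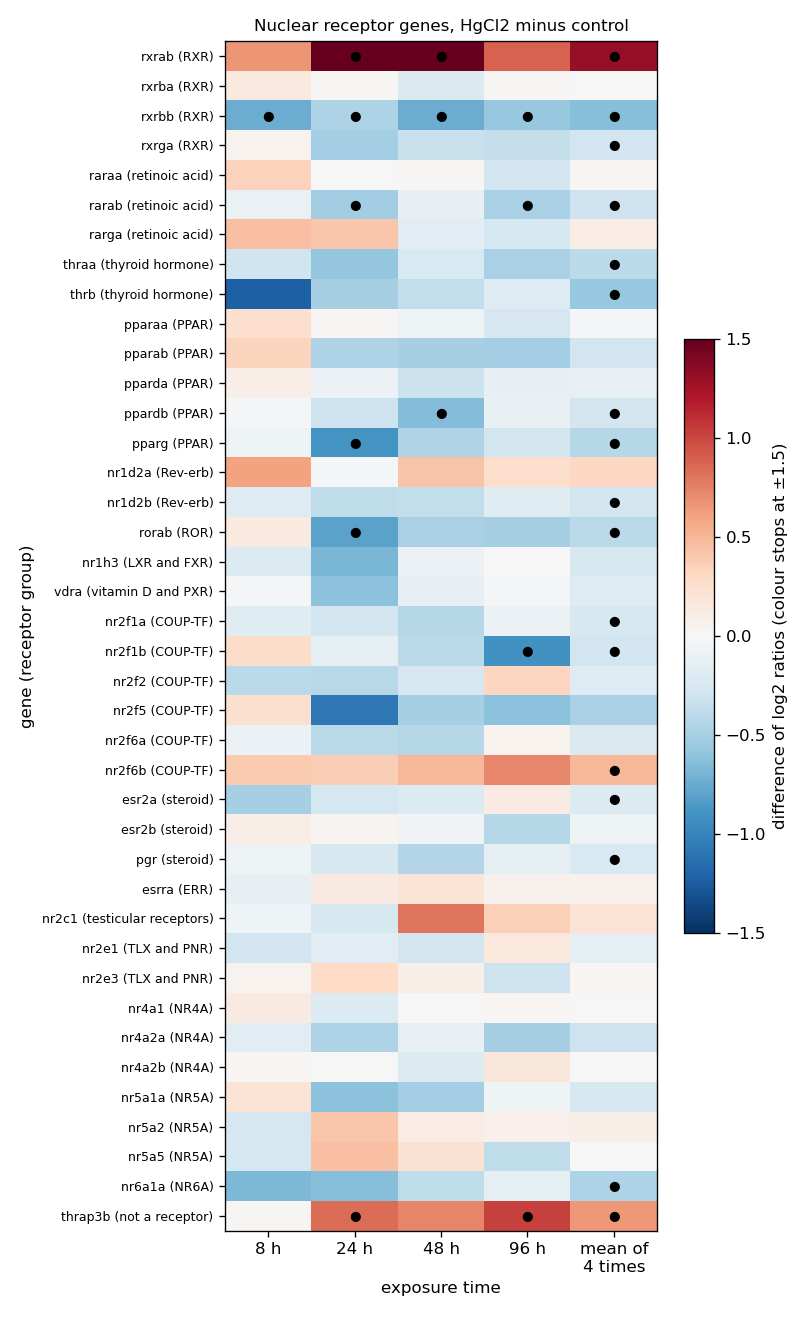
Difference of log2 ratios, HgCl2 minus control, for the 40 genes (rows, by receptor group) at 8, 24, 48 and 96 h and over the 4 times (columns). Red is higher and blue lower in HgCl2, and a dot marks a limma adjusted p under 0.05. Of the last column's 17 dots, 14 lie on blue cells.

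The RXRs, the shared partners of the family, moved in opposite directions. Of the 40 members, rxrab had the largest positive difference over the 4 times. At 24 h its log2 ratios were 0.63, 0.79 and 1.49 in HgCl2 livers, against -0.66, -1.31 and -0.58 in control livers. At 48 h they were 1.5, 1.05 and 0.99 in HgCl2 livers, against -0.85, -0.99 and -0.21 in control livers. Every HgCl2 array lay above every control array at 24 and 48 h, and so it did at 96 h, where HgCl2 arrays read 1.36, 0.74 and 0.61 and control arrays 0.08, 0.13 and -0.15. At 8 h the groups overlapped, with 1.15, 0.67 and -0.04 in HgCl2 livers and 0.01, 0.51 and -0.71 in control livers. The difference was 1.82 at 24 h (SE 0.33, adjusted p = 0.00145, limma) and 1.86 at 48 h (SE 0.33, adjusted p = 0.00145), which are 3.53-fold and 3.64-fold. Over the 4 times it was 1.31 (SE 0.17, adjusted p = 5.51e-06), or 2.47-fold. At 8 h (0.66, adjusted p = 0.42) and 96 h (0.88, adjusted p = 0.083) it was not called. At 24 h the sample channel of rxrab differed by 0.35 (adjusted p = 0.69, limma) and the reference channel by -1.47. At 48 h these were 1.07 (adjusted p = 0.11 for the sample) and -0.79, and at 96 h 1.34 (adjusted p = 0.021 for the sample) and 0.46. Most of the 24 h difference thus lay in the reference channel.

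The rxrbb gene was the only member called at all 4 times, and it was lower at each. At 8 h its log2 ratios were -0.40, -0.32 and -0.06 in HgCl2 livers, against 0.32, 0.64 and 0.50 in control livers. At 48 h they were -0.41, -0.55 and -0.20 in HgCl2 livers, against 0.43, 0.27 and 0.39 in control livers. Over the 12 HgCl2 arrays rxrbb ran between -0.55 and 0.05 and over the 12 control arrays between 0.17 and 0.64, so that no HgCl2 array reached the lowest control array. The differences were -0.75, -0.47, -0.75 and -0.57 at 8, 24, 48 and 96 h (SE 0.15 each, limma adjusted p = 0.015, 0.043, 0.0031 and 0.013), and -0.63 over the 4 times (SE 0.073, adjusted p = 1.59e-06), a ratio of 0.644. The calls at 8, 24 and 96 h were lost without any one of 4, 6 and 2 of the 6 arrays of those times (adjusted p up to 0.10, 0.12 and 0.071), and those at 48 h and over the 4 times held without each array. In the sample channel alone, however, rxrbb differed by -0.01, while the reference channel differed by 0.62 (adjusted p = 0.021 for the reference, limma). Over the 4 times the reference pool thus read higher on the HgCl2 arrays by nearly as much as the ratio was lower. The single times differed in this. Sample and reference channels differed by 0.44 and 1.19 at 8 h and by -0.56 and -0.09 at 24 h. At 48 h they differed by -0.07 and 0.67, and at 96 h by 0.13 and 0.70.

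Of the remaining RXRs, rxrga was lower over the 4 times, with a difference of -0.28 (SE 0.092, adjusted p = 0.023, limma) and was called at no single time. Its log2 ratio had a lowest, median and highest value of -0.81, -0.36 and 0.08 on the HgCl2 arrays and of -0.31, -0.08 and 0.21 on the control arrays. The 12 arrays of each kind overlapped. By its brightest probe rxrba differed by -0.01 (SE 0.091, adjusted p = 0.95).

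**Figure D2:**
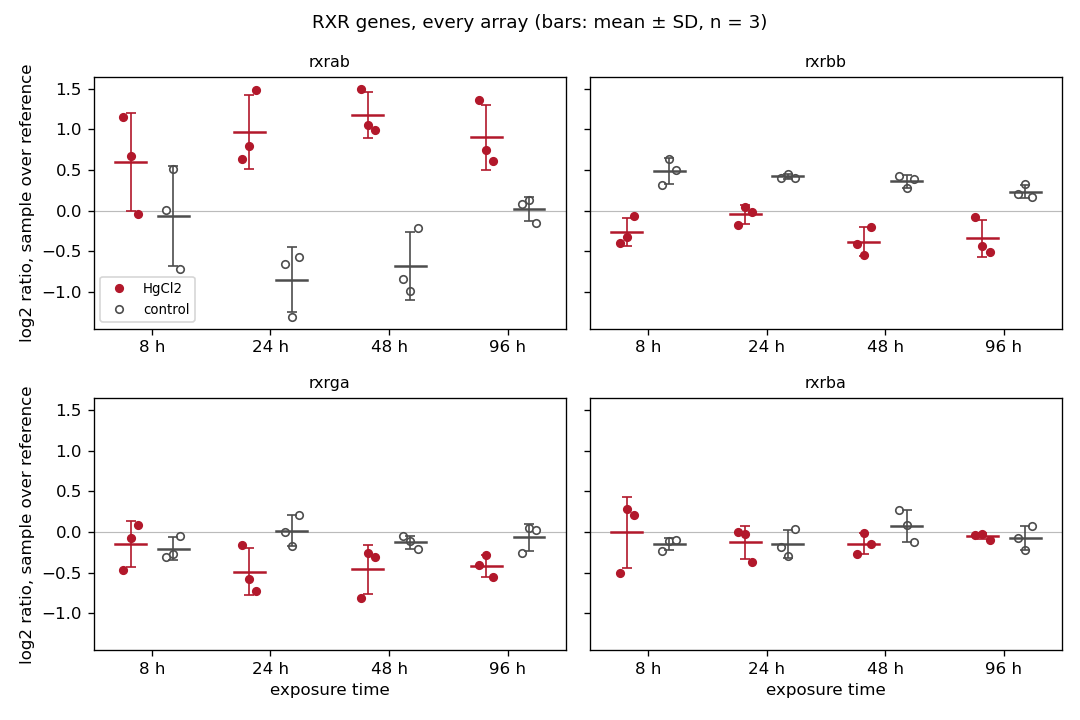
Log2 ratio of sample over reference on every array for the 4 RXR genes by exposure time, HgCl2 filled and control open, with mean ± SD (n = 3). For rxrab the HgCl2 arrays lie above the control arrays from 24 h on, and for rxrbb they lie below them at every time.

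The retinoic acid receptors bind all-trans retinoic acid, the active form of vitamin A. Among 3 of them measured, rarab was lower and the others were not called. At 24 h rarab read -0.21, -0.53 and -0.45 in HgCl2 livers, against 0.08, 0.15 and 0.14 in control livers. At 96 h it read -0.63, -0.17 and -0.54 in HgCl2 livers, against -0.09, 0.12 and 0.07 in control livers. The groups did not overlap at either time. At 8 h the HgCl2 arrays read -0.04, -0.18 and -0.08 and the control arrays -0.03, -0.04 and 0.06, which overlapped, as did the arrays at 48 h. The difference was -0.52 at 24 h (SE 0.14, adjusted p = 0.021, limma), -0.48 at 96 h (SE 0.14, adjusted p = 0.029) and -0.31 over the 4 times (SE 0.071, adjusted p = 0.00235), a ratio of 0.809. The sample channel of rarab differed over the 4 times by -0.07 and the reference channel by 0.23, and at the times called the sample channel was not lower (0.22 against 0.74 in the reference at 24 h, 0.05 against 0.53 at 96 h). Both single-time calls of rarab were lost without any one of 4 of the 6 arrays (adjusted p up to 0.094 at 24 h and 0.11 at 96 h), and the call over the 4 times held without each array. The others, raraa (0.02) and rarga (0.11), had adjusted p = 0.92 and 0.61 over the 4 times.

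Of 8 measured target genes of the retinoic acid receptors (cyp26a1, cyp26b1, dhrs3a, crabp2a, rarga, tgm2b, hoxa1a and hoxb1a), limma called 0 over the 4 times or at any single time. At 48 h 1 of them reached an unadjusted p under 0.05, beside 24.4% of all probes. The median difference of the 8 targets over the 4 times was 0.04. Of 14 measured genes that supply or remove the ligands of the family, 5 were lower and 0 higher over the 4 times, with a median of -0.13. They are retinol and retinal enzymes and carriers, a deiodinase and a sterol hydroxylase. The lower ones were rdh14b, rbp2a, bco1, dio2 and cyp27a1.4, listed here after their values were seen. Over the 4 times 13.8% of all probes were lower and 17.7% higher.

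Both measured thyroid hormone receptors were lower over the 4 times. These receptors bind triiodothyronine and hold corepressors on their targets when the hormone is absent. At 24 h thraa read -0.34, -0.18 and -0.48 in HgCl2 livers, against 0.32, 0.26 and 0.17 in control livers. At 96 h it read -0.34, -0.71 and -0.32 in HgCl2 livers, against 0.26, -0.05 and -0.12 in control livers. The groups did not overlap at 24, 48 or 96 h and overlapped at 8 h, where 1 control array read 0.59 and the others -0.34 and -0.31. The difference over the 4 times was -0.40 (SE 0.099, adjusted p = 0.00401, limma), with -0.22 in the sample channel and 0.18 in the reference channel. No single time was called, and the lowest adjusted p was 0.062, at 24 h. Most of the 24 h difference of thraa lay in the reference channel, with -0.10 in the sample channel and 0.49 in the reference channel. At 48 h these were -0.16 and 0.06, and at 96 h -0.38 and 0.10.

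The HgCl2 arrays of thrb at 8 h read -2.19, -0.10 and -0.00 and the control arrays 0.02, 0.73 and 0.63. A single HgCl2 array lay far below the others, and the difference of -1.23 (SE 0.39, adjusted p = 0.15, limma) was not called. At 96 h the HgCl2 arrays read 0.47, -0.23 and 0.07 and the control arrays 0.49, 0.07 and 0.34, which overlapped. Over the 4 times the difference was -0.57 (SE 0.19, adjusted p = 0.029). The reference channel differed by 0.43 (adjusted p = 0.024), against -0.14 in the sample channel. On the second probe of each gene the difference over the 4 times was 0.03 for thraa (adjusted p = 0.91) and -0.18 for thrb (adjusted p = 0.30). The second thraa probe was dim: it was above background in the sample channel on 11 of 24 arrays and in the reference channel on 2. At 96 h that thrb probe was lower, with a difference of -0.81 (adjusted p = 0.043), with 0.68 in the sample channel and 1.49 in the reference channel.

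The deiodinase dio2, which converts thyroxine to triiodothyronine, was lower, with a difference of -1.08 over the 4 times (SE 0.28, adjusted p = 0.0051, limma) and of -2.32 at 8 h (adjusted p = 0.044). It was picked out after its values were seen.

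The PPARs are fatty acid sensors: in mammals PPARα drives fatty acid oxidation in the fasting liver, PPARδ does so in muscle and other tissues, and PPARγ promotes fat storage. Of 5 measured, pparg and ppardb were lower over the 4 times and pparaa, pparab and pparda were not called. At 24 h pparg read -0.44, -0.78 and -0.97 in HgCl2 livers, against 0.05, 0.11 and 0.32 in control livers. These groups did not overlap, and at 8, 48 and 96 h they did. At 48 h the HgCl2 arrays read -0.83, -0.44 and -0.40, while the control arrays read 0.23, 0.24 and -0.79. The difference was -0.89 at 24 h (SE 0.26, adjusted p = 0.033, limma), a ratio of 0.538, and -0.43 over the 4 times (SE 0.13, adjusted p = 0.018), a ratio of 0.745. The call at 24 h was lost without any one of 5 of the 6 arrays (adjusted p up to 0.13).

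Both channels of the pparg probe moved far more than their ratio. The sample channel differed by -1.38 over the 4 times and the reference channel by -0.95 (adjusted p = 0.017 for the reference, limma). At 96 h they differed by -3.58 and -3.30. Between 8 and 96 h in the control livers they were higher by 3.22 and 3.40, while the ratio changed by -0.17 (adjusted p = 0.90). At 24 h, where the ratio was called, the reference channel differed by 0.01 and the sample channel by -0.88.

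For ppardb the call was at 48 h, where HgCl2 arrays read -0.31, -0.34 and 0.12 and control arrays 0.31, 0.77 and 0.33. The groups did not overlap, and the difference was -0.64 (SE 0.16, adjusted p = 0.019, limma). At that time the sample channel differed by 0.14 and the reference channel by 0.78. Without any one of 3 of the 6 arrays the call was lost (adjusted p up to 0.12). The mean ppardb difference over the 4 times was -0.27 (SE 0.082, adjusted p = 0.015), with 0.13 in the sample channel and 0.40 in the reference channel (adjusted p = 0.021 for the reference). Its 3 other probes gave 0.22, 0.06 and -0.04 over the 4 times, and none was called.

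Of 5 measured target genes of the PPARs (cpt1ab, acadvl, pdk4, ucp2 and acsl1a), 3 were higher and 0 lower over the 4 times, with a median difference of 0.55. Of all probes, 17.7% were higher and 13.8% lower. The uncoupling protein gene ucp2 was higher at 24 h (0.84, adjusted p = 0.034, limma) and at 96 h (0.89, adjusted p = 0.023).

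Rev-erb and ROR receptors compete for the same DNA elements in genes of the circadian clock, which Rev-erbs repress and RORs activate. Both called members of these groups were lower. At 24 h the Rev-erbβ gene nr1d2b read -0.25, -0.26 and -0.50 in HgCl2 livers, against 0.07, -0.04 and 0.10 in control livers, and at 48 h it read -0.49, -0.10 and -0.27 in HgCl2 livers, against 0.14, 0.04 and 0.07 in control livers. The HgCl2 arrays lay below the control arrays at 8, 24 and 48 h and overlapped them at 96 h. The nr1d2b gene was lower, with a difference of -0.28 over the 4 times (SE 0.066, adjusted p = 0.0028, limma), a ratio of 0.823, and it was called at no single time. The sample channel differed by -0.50 and the reference channel by -0.22. A second probe of nr1d2b was called as well, at -0.27 over the 4 times and -0.67 at 24 h (adjusted p = 0.012), and the third gave -0.11 and was not called. The paralogue nr1d2a differed by 0.32 and was not called (adjusted p = 0.18).

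The RORα gene rorab was lower at 24 h and over the 4 times. At 24 h it read -0.56, -0.95 and -0.98 in HgCl2 livers, against -0.03, -0.13 and 0.10 in control livers. At 96 h it read -0.54, -0.71 and -0.86 in HgCl2 livers, against -0.27, -0.10 and -0.24 in control livers. The groups did not overlap at 24, 48 or 96 h. At 8 h the HgCl2 arrays read -0.94, 0.12 and -0.39 and spanned the control arrays, which read -0.42, -0.80 and -0.43. The difference was -0.81 at 24 h (SE 0.22, adjusted p = 0.019, limma), a ratio of 0.571, and -0.41 over the 4 times (SE 0.11, adjusted p = 0.0061). It was not called at 48 h (-0.48, adjusted p = 0.17) or 96 h (-0.50, adjusted p = 0.13). At 24 h the sample channel differed by -0.90 and the reference channel by -0.09, and over the 4 times these were -0.71 and -0.30. At 48 h they were -0.88 and -0.40. At 96 h the sample channel differed by 0.03 and the reference channel by 0.53, so the separation at that time lay in the reference channel. At 8 h both channels were lower, by -1.07 and -1.22 (adjusted p = 0.0097 and 0.0074, limma), with the ratio at 0.15. The call at 24 h was lost without any one of 4 of the 6 arrays (adjusted p up to 0.080), and that over the 4 times held without each array.

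Of 17 measured clock genes that work with Rev-erb and ROR, 4 were higher and 2 lower over the 4 times, with a median of -0.01. Of all probes, 17.7% were higher and 13.8% lower. The clock activator gene bmal2 was lower at 48 h (-0.79, adjusted p = 0.015, limma), 96 h (-0.60, adjusted p = 0.044) and over the 4 times (-0.59, adjusted p = 9.67e-05). Sampling hours of the day are not given in the labels.

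**Figure D3:**
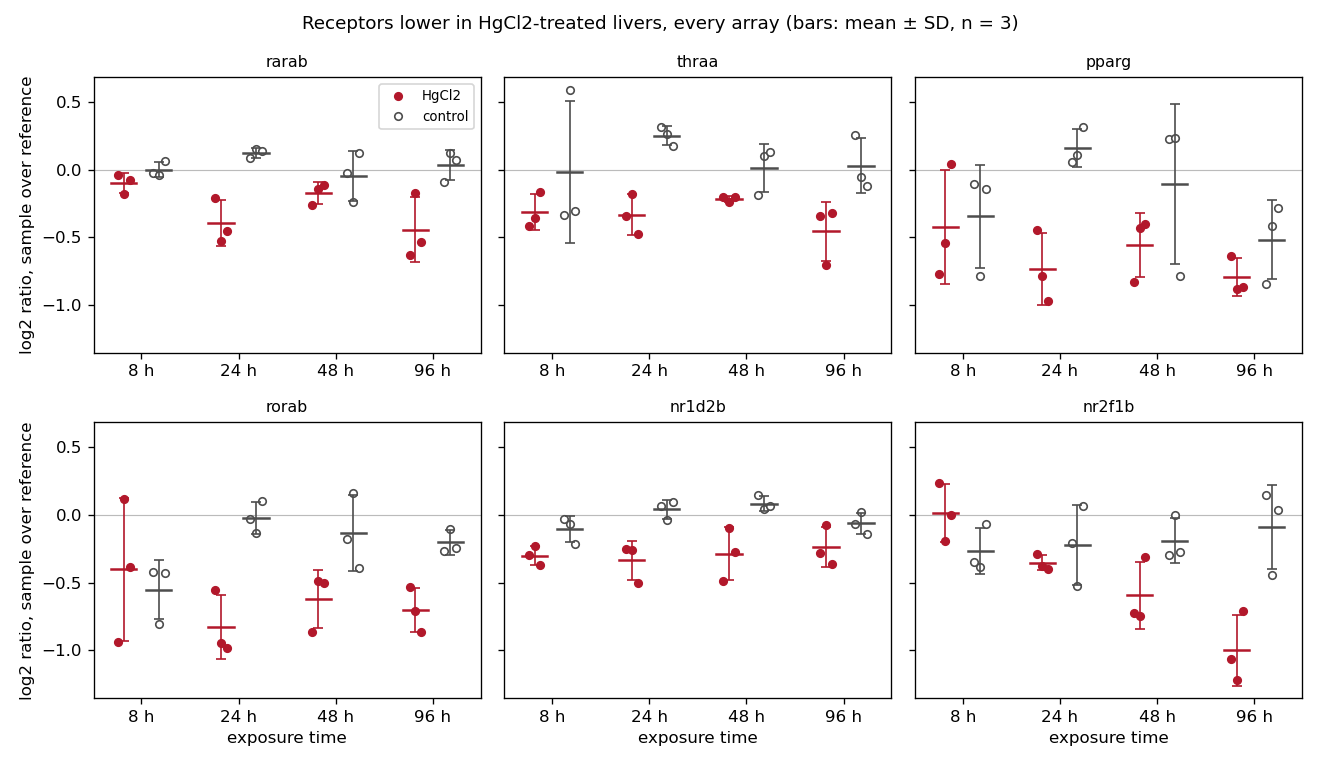
Log2 ratio of sample over reference on every array for 6 receptor genes that were lower over the 4 times, by exposure time, HgCl2 filled and control open, with mean ± SD (n = 3). The rarab, pparg and rorab groups separate at 24 h, and nr2f1b separates most at 96 h.

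The liver X and vitamin D receptors were represented by 1 member each, and neither was called. The liver X receptor nr1h3, which senses oxysterols, differed by -0.25 over the 4 times (SE 0.14, adjusted p = 0.19, limma), and the vitamin D receptor vdra by -0.20 (SE 0.19, adjusted p = 0.47). The vdra probe was dim: it was above background in the sample channel on 17 of 24 arrays and in the reference channel on 3. Of 4 measured liver X receptor targets, nr1h3 among them, 1 was higher over the 4 times, beside 17.7% of all probes. It was the cholesterol exporter abca1a, with a difference of 1.28 at 8 h (adjusted p = 0.040), 1.75 at 24 h (adjusted p = 0.00077) and 1.12 at 48 h (adjusted p = 0.023). Of 2 measured bile acid receptor targets limma called 0 over the 4 times, with 1 at an unadjusted p under 0.05, beside 41.6% of all probes. The single measured target of the xenobiotic receptor PXR, the transporter gene abcb5, was higher at 24 h (0.98, adjusted p = 0.020) and 96 h (0.81, adjusted p = 0.049).

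The COUP-TF group holds orphan receptors, without a settled natural ligand, that mostly repress transcription. Of its 6 members, nr2f1a and nr2f1b were lower over the 4 times, nr2f6b was higher and nr2f2, nr2f5 and nr2f6a were not called. At 8 h nr2f1b read 0.23, -0.19 and 0.00 in HgCl2 livers, against -0.35, -0.38 and -0.07 in control livers. At 48 h it read -0.72, -0.75 and -0.31 in HgCl2 livers, against -0.30, -0.00 and -0.28 in control livers. At 96 h it read -1.06, -1.22 and -0.71 in HgCl2 livers, against 0.15, -0.44 and 0.03 in control livers. The groups overlapped at 8 and 24 h and separated at 48 and 96 h.

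The difference of nr2f1b was 0.28, -0.13, -0.40 and -0.91 at 8, 24, 48 and 96 h, of which the last was called (SE 0.19, adjusted p = 0.0038, limma), a ratio of 0.531. Over the 4 times it was -0.29 (SE 0.097, adjusted p = 0.026). Between 8 and 96 h the difference itself changed by -1.19 (SE 0.27, adjusted p = 0.037), beside 0.991% of all probes with such a change in either direction. It was the only member called for a change with time. The call was lost without any one of 8 of the 12 arrays at those times. It was also lost without background correction, with scaled ratios, with the authors' table and with the set as a block. With dim probes left out nr2f1b was not tested. The 8 h and 96 h arrays of each treatment lay in different sets of the reference channel, so set and time cannot be told apart here. From 8 to 24 h and from 8 to 48 h, 0 members changed, beside 0% and 0.0918% of all probes, and limma gave 9 and 5 of 40 members at an unadjusted p under 0.05, beside 8.82% and 11.8% of all probes. In control livers 0 members changed between 8 and 96 h, beside 0.214% of all probes and with 2 of 40 members at an unadjusted p under 0.05, beside 9.96% of all probes. At 8 h the sample channel of nr2f1b differed by 0.88 and the reference channel by 0.60. At 96 h the sample channel of nr2f1b differed by -0.07 and the reference channel by 0.85 (adjusted p = 0.11 for the reference), and over the 4 times by 0.28 and 0.57. The reference channel was above background on 11 of 24 arrays.

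The nr2f1a gene was lower, with a difference of -0.24 over the 4 times (SE 0.085, adjusted p = 0.034, limma), with a lowest, median and highest ratio of -0.24, 0.14 and 0.41 on HgCl2 arrays and of 0.03, 0.26 and 0.64 on control arrays. The nr2f6b gene was higher by 0.49 (SE 0.18, adjusted p = 0.039), with -0.15, 0.47 and 1.31 on HgCl2 arrays and -0.34, -0.06 and 0.57 on control arrays. Its probe was above background in the reference channel on 0 of 24 arrays and in the sample channel on 15, and at 8 h on 0 of 3 HgCl2 arrays in the sample channel. The HgCl2 and control arrays of both genes overlapped.

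The steroid receptors among the members bind sex hormones. Among 3 members, the oestrogen receptor gene esr2a and the progesterone receptor gene pgr were lower over the 4 times and esr2b was not called. For esr2a the difference was -0.21 (SE 0.076, adjusted p = 0.041, limma), and it stood at -0.50, -0.26, -0.20 and 0.12 at 8, 24, 48 and 96 h, none called alone. At 8 h esr2a read -0.13, -0.09 and 0.06 in HgCl2 livers, against 0.22, 0.69 and 0.42 in control livers. Both channels of esr2a had negative differences over the 4 times, the sample channel -0.70 and the reference channel -0.50 (adjusted p = 0.0087 for the reference). For pgr it was -0.23 (SE 0.079, adjusted p = 0.034), with -0.34, -0.05 and 0.27 as lowest, median and highest ratio on HgCl2 arrays and -0.08, 0.15 and 0.48 on control arrays. The sample channel of pgr differed by 0.15 and the reference channel by 0.38.

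In the remaining groups 1 receptor was called. The germ cell nuclear factor gene nr6a1a, a repressor known from mammalian embryos and germ cells, was lower, with a difference of -0.46 over the 4 times (SE 0.12, adjusted p = 0.0060, limma). At 8 h it read -0.69, -0.42 and -0.26 in HgCl2 livers, against -0.15, 0.10 and 0.68 in control livers, which did not overlap, and at 96 h the groups overlapped. The sample channel of nr6a1a differed by 0.15 over the 4 times and the reference channel by 0.61 (adjusted p = 0.0074 for the reference). At 8 h those differences were 1.01 and 1.68.

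Uncalled receptors with the lowest p of their groups were esrra (0.07, adjusted p = 0.76, limma), nr2c1 (0.22, adjusted p = 0.24), nr2e1 (-0.14, adjusted p = 0.21), nr4a2a (-0.31, adjusted p = 0.20) and nr5a1a (-0.24, adjusted p = 0.14). The NR4A genes are immediate early genes in mammals, and the mean differences of 3 such members ran between -0.31 and -0.00. Of these the nr4a1 probe was dim, above background in the sample channel on 12 of 24 arrays and in the reference channel on 5. The testicular receptor gene nr2c1 reached 0.80 at 48 h (adjusted p = 0.066), where the groups did not overlap. At that time its sample channel differed by 0.13 (adjusted p = 0.86, limma) and its reference channel by -0.67. The reference channel of this probe was above background on 7 of 24 arrays.

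The thrap3b gene encodes a nuclear protein that works in RNA splicing and was found with the thyroid hormone receptor complex. At 24 h it read 1.11, 1.55 and 0.68 in HgCl2 livers, against 0.27, 0.41 and 0.12 in control livers. At 96 h it read 1.35, 0.99 and 1.64 in HgCl2 livers, against 0.60, -0.03 and 0.33 in control livers. The groups separated at 24, 48 and 96 h and overlapped at 8 h. The difference was 0.84 at 24 h (SE 0.26, adjusted p = 0.040, limma), 1.02 at 96 h (SE 0.26, adjusted p = 0.012) and 0.65 over the 4 times (SE 0.13, adjusted p = 0.00062), or 1.57-fold. The calls at 24 and 96 h were lost without any one of 5 and 2 of the 6 arrays (adjusted p up to 0.19 and 0.077).

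Coactivators and corepressors carry out the effect of the receptors. Of 15 measured, 2 were higher and 0 lower over the 4 times, with a median of 0.05. Of all probes, 17.7% were higher and 13.8% lower. The corepressor gene nrip1b was higher at 48 h (1.32, adjusted p = 0.00037, limma) and at 96 h (0.71, adjusted p = 0.024) and by 0.71 over the 4 times. Of 3 measured receptor genes outside the rule, 1 was higher and 1 lower.

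Probes of the same gene gave different differences in several cases. For 12 members the array held 16 probes besides the brightest, and 9 of the 16 had the sign of the brightest over the 4 times. In 6 of these pairs the brightest probe alone was called, in 3 the other probe alone and in 1 both. Among all probes, 17.7% were called higher and 13.8% lower over the 4 times. The same counts over all genes with several probes were not taken. Some of the other probes were dim, with the reference channel of those of thraa and nr2f6a above background on 2 and 5 of 24 arrays. The second rxrba probe was 1 of the 3 called where the brightest was not. At 96 h it read 2.04, 2.86 and 5.30 in HgCl2 livers, against 0.05, -0.62 and -0.31 in control livers, where its sample channel was above background on 3 of 3 HgCl2 and 0 of 3 control arrays, so that the size of the difference is not given (adjusted p = 0.0025, limma). The difference was 2.54 at 24 h (SE 0.74, adjusted p = 0.030), with 3 of 3 arrays of each group above background, and 2.77 at 48 h (SE 0.74, adjusted p = 0.025), with 3 of 3 HgCl2 and 2 of 3 control arrays. The sample and reference channels of this probe differed by 2.62 and 0.08 at 24 h and by 3.97 and 1.20 at 48 h. Its reference channel also differed by -2.87 at 8 h (adjusted p = 0.0086 for the reference, limma) and by 3.62 at 96 h (adjusted p = 0.00083). The brightest rxrba probe read -0.04, -0.02 and -0.10 in HgCl2 livers at 96 h, against -0.08, -0.22 and 0.08 in control livers.

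The NR5A receptor nr5a2, known in the mammalian liver for its part in bile acid and cholesterol metabolism, also differed between its probes. Its brightest probe differed by 0.09 over the 4 times (adjusted p = 0.40, limma), while the others were higher by 0.42 (adjusted p = 0.00345) and 0.61 (adjusted p = 0.00858). At 96 h probe 5270957 read 1.90, 1.07 and 2.79 in HgCl2 livers, against 0.23, 0.29 and -0.15 in control livers, and probe 5270619 read 0.60, 0.58 and 0.54 in HgCl2 livers, against -0.09, -0.40 and -0.03 in control livers. Neither pair of groups overlapped. The sample channel of these probes at 96 h was higher by 1.73 and 0.81, and the reference channel differed by -0.07 and 0.07. Which transcripts the probes detect was not examined here.

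**Figure D4:**
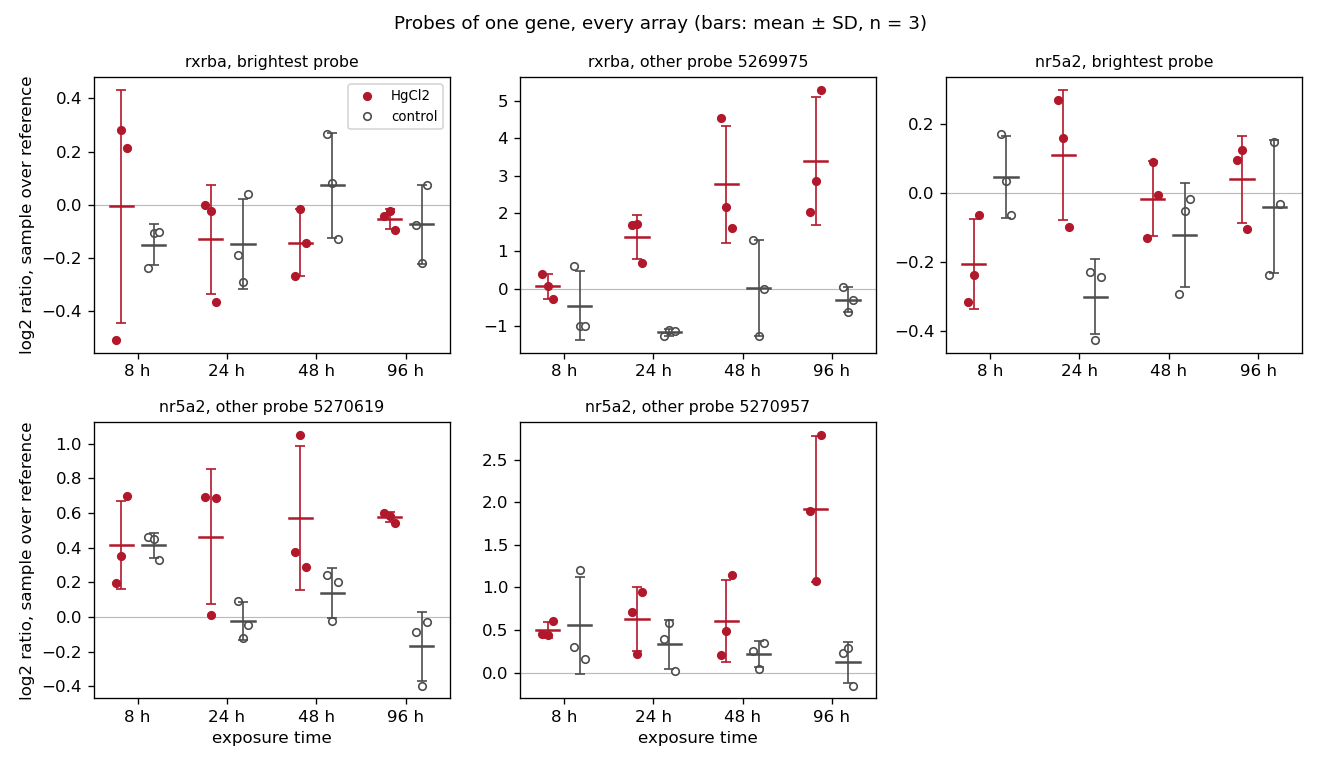
Log2 ratio of sample over reference on every array for the 2 probes of rxrba and the 3 probes of nr5a2, by exposure time, HgCl2 filled and control open, with mean ± SD (n = 3); each panel has its own vertical scale. The brightest probes lie between -0.51 and 0.28 (rxrba) and between -0.43 and 0.27 (nr5a2), while the second rxrba probe and both other nr5a2 probes lie higher in HgCl2 at 96 h.

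A difference of ratios can come from either channel, so both were read. Of the 14 members called lower over the 4 times, 10 had a negative difference in the sample channel and 8 a positive one in the reference channel, and 4 (rxrbb, rarab, thraa and thrb) had both. The sample channel differed in the positive direction in the remaining 4, which were ppardb, pgr, nr2f1b and nr6a1a. These counts go by sign alone. In the sample channel limma called esr2a, nr1d2b, nr2f1a, pparg, rorab and rxrga lower and no other of the 14. The adjusted p there was 0.95 for rxrbb, 0.67 for rarab, 0.36 for thraa and 0.64 for thrb. The share of all probes called in that channel was not taken. All 3 members called higher had a positive difference in the sample channel: rxrab with 0.72 there and -0.58 in the reference, thrap3b with 0.34 and -0.31, and nr2f6b with 0.63 and 0.14. The reference channel of 14 of 40 members differed between HgCl2 and control arrays over the 4 times by limma, against 16.8% of all probes, and 7 of those 14 were among the 17 called members. What moved the reference channel was not tested.

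**Figure D5:**
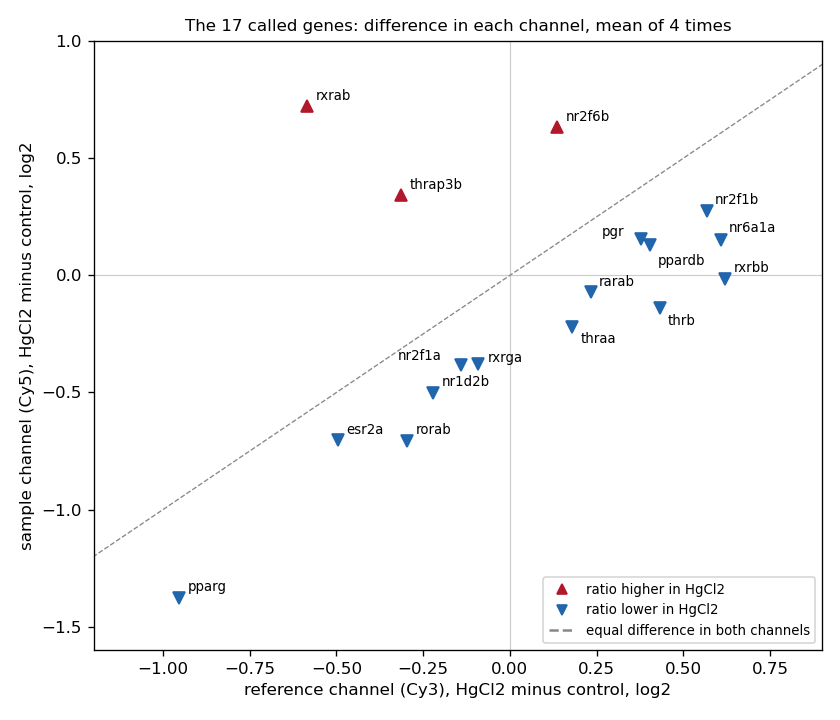
Mean difference over the 4 times, HgCl2 minus control, in the reference channel (horizontal, log2 Cy3) and in the sample channel (vertical, log2 Cy5) for the 17 called genes. Points below the dashed line have a lower ratio; rxrbb lies at 0.62 across and -0.01 up, and pparg at -0.95 and -1.38.

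With the set of arrays seen in the reference channel as a random block, a fit chosen after seeing the data, 6 of the 17 calls over the 4 times remained. These were rxrab, rxrbb, rarab, thraa, nr1d2b and thrap3b, with limma adjusted p between 0.000146 (rxrbb) and 0.0461 (thraa). In that fit 9.34% of all probes were higher and 5.8% lower. Because no set held both treatments, the fit cannot separate a shift between sets from the treatment, also for the calls that remained.

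Markers of the cell types in the liver sample also moved. Over the 4 times 17.7% of all probes were higher and 13.8% lower. Of 6 hepatocyte markers, 4 were higher over the 4 times, and the mean log2 ratio of the 6 lay between -0.23 and 0.68 on HgCl2 arrays and between -0.70 and -0.12 on control arrays. Of 4 red blood cell markers, 2 were lower (-0.05 to 0.74 on HgCl2 arrays and 0.29 to 1.49 on control arrays), and 4 of 4 exocrine pancreas markers were lower (-1.74 to 0.36 on HgCl2 arrays and -1.14 to 0.91 on control arrays). Of 6 ovary markers, 4 were higher (-1.06 to 2.59 on HgCl2 arrays and -1.47 to 0.31 on control arrays), and of 10 leukocyte markers, 4 were higher and 1 lower (-0.06 to 1.01 on HgCl2 arrays and -0.19 to 0.27 on control arrays). Of 6 intestine markers limma called 0 over the 4 times, with 1 at an unadjusted p under 0.05, beside 41.6% of all probes. The part of these cells in the levels of the receptors was not tested.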

How the data were processed

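Zebrafish liver RNA was measured on 24 spotted oligonucleotide arrays with 2 colours, and groups were taken from the labels. Per the file headers, the deposited files give the median intensity and the local background intensity of each spot in both channels and the percent of spot pixels above background plus 2 SD. The authors also deposited a log2 ratio table, normalized by lowess according to their methods. Array number limits the precision.

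The intensities were corrected with normexp (offset 50) and normalized by loess within each array (limma 3.58.1, R 4.3.3), with 172 control spots at weight 0. No filter on dim spots was set. A spot was taken as above background with at least 50% of such pixels. limma was fitted to 8 group means (16 residual degrees of freedom), with Benjamini-Hochberg adjustment over 16340 probes. Sample (Cy5) and reference (Cy3) channels were also fitted alone after Aquantile scaling. Probe names came from the platform annotation: 5916 of the tested probes had 1 symbol and 75 probes on the array had several and were not used, and 1 symbol was updated through its gene identifier. The genome build of the probe design is not given in the sources used here, and no position is printed.

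Named genes were every called member and, in each receptor group, the member with the lowest p over the 4 times; from the lists, up to 4 genes called at 2 or more times. Members and lists were chosen with earlier results of these data known. Lists covered coactivators and corepressors, ligand supply and removal, targets of the PPAR, liver X, bile acid, PXR and retinoic acid receptors, clock partners, receptors outside the rule and cell markers. The fit was tested on simulated data with independent noise and changes set at 96 h. The simulation held no shift between sets of arrays, so it cannot tell how the fit behaves with the sets seen here. Figures were drawn with matplotlib in Python. P-values measure the spread between the arrays of a group. Each array held its own pool of fish, so differences between pools and between array measurements cannot be told apart in this spread. A shift between sets of arrays that goes with the treatment is not part of it. Arrays of HgCl2 and control livers with the same replicate number correlated at -0.0322 to 0.189 in their deviations from the group means, so the numbers were not taken as pairs. Alternatives covered background correction, normalization, the sample channel alone, the authors' table, dim probes, a replicate block, array weights, other probes, single times, the methods' t-test and each array left out.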

Additional observations from a re-analysis of the deposited data

Results flagged for a closer look

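The difference of nr2f1b, an orphan receptor of the COUP-TF group, changed by -1.19 between 8 and 96 h, and it was the only member of the 40 whose difference passed the test of a change with time (SE 0.27, adjusted p = 0.037, limma). The HgCl2 arrays averaged 0.01 at 8 h and -1.0 at 96 h, while the control arrays averaged -0.27 at 8 h and -0.09 at 96 h. With 3 arrays in a group no array was tested as an outlier. In both treatments the 8 h and the 96 h arrays lay in different sets of the reference channel, so set and time cannot be told apart in this change.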

How the results depend on the processing

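Over the 4 times, the calls of rxrab and nr1d2b held under every alternative run, including each of the 24 arrays left out in turn. The call of rorab was lost with the reference set as a random block alone, and those of rxrbb, rarab, thraa and thrap3b with the sample channel alone. Leaving out 1 array gave 0 to 1 members called at 8 h, 1 to 9 at 24 h, 2 to 5 at 48 h, 1 to 4 at 96 h and 13 to 17 over the 4 times. The changes from 8 h gave 0 to 0 at 24 h, 0 to 0 at 48 h and 0 to 1 at 96 h, and the control change 0 to 0. At 24 h the count was 9 without HgCl2 replicate 1, 1 without HgCl2 replicate 2 and 2 without HgCl2 replicate 3 or any control array. By the reference channel, HgCl2 replicate 1 at 24 h lay in another set than replicates 2 and 3. The part of this in the counts was not tested. At 8 h the count was 0 without HgCl2 replicate 1 or 2 or control replicate 2 or 3. At 48 h it was 5 without HgCl2 replicate 3, and at 96 h 1 without HgCl2 replicate 3 or control replicate 2. The change of nr2f1b from 8 to 96 h lost its call without 8 of 12 arrays, which were HgCl2 8 h replicates 1 and 3, HgCl2 96 h replicates 1 and 2, control 8 h replicates 1 and 2 and control 96 h replicates 1 and 3. Of the named genes over the 4 times, single arrays ended the call of esr2a (16 of 24 arrays, adjusted p up to 0.080), nr2f6b (14 arrays, 0.077), nr2f1a (11 arrays, 0.069), pgr (9 arrays, 0.066), thrb (5 arrays, 0.053) and nr2f1b (3 arrays, 0.053), and of no other. At single times they ended those of rxrbb at 8, 24 and 96 h, pparg, rarab, rorab and thrap3b at 24 h, ppardb at 48 h and rarab and thrap3b at 96 h, with adjusted p up to 0.19. Without background correction 2 members were called at 24 h, 10 over the 4 times and 0 for the change from 8 to 96 h. That change also gave 0 with scaled ratios, the authors' table and the set as a block. It gave 0 too with dim probes left out, where the nr2f1b probe was not among those tested. Scaled ratios gave 2 members at 96 h, and the authors' values gave 0 at 8 h and 5 at 48 h. The sample channel alone was here normalized by quantiles between arrays, unlike the channel differences given with the results, which come from loess and Aquantile, so their values differ. It gave 7 members at 8 h, of which 4 were higher. The 3 members it gave at 24 h were all lower, as were the 3 at 48 h. Of 8 at 96 h, 6 were lower, and of 15 over the 4 times, 11 were lower and 4 higher. It gave 1 for the change to 48 h, 7 for the change to 96 h and 7 in controls. It turned the sign of rxrbb at 8 h (0.39) and 96 h (0.13), rarab at 24 h (0.18) and 96 h (0.034), ppardb at 48 h (0.067) and over the 4 times (0.074), and, over the 4 times, nr2f1b (0.27), nr6a1a (0.10) and pgr (0.12). The set as a random block, chosen after seeing the data, gave 0 at 8 h, 2 at 24 h, 2 at 96 h and 6 over the 4 times. Counting every probe of a gene gave 7 at 96 h. The 6 arrays of a time alone gave 0 at 8 h and 3 at 24 h. The methods' t-test gave 3, 10, 7 and 11 of 40 members at its unadjusted threshold at 8, 24, 48 and 96 h, beside 9.89, 18.9, 19.2 and 25.5% of all probes, and 0, 0, 0 and 0 after Benjamini-Hochberg, where it called 1, 12, 2 and 706 of all probes. A replicate block gave 1, 4, 3 and 4 members at the 4 times and 16 over them, and moved no count by over 1.5 times. Same-numbered arrays share only a number. In all other cases the cause of a lost call was not tested. With dim probes left out, 29 of 40 members could be tested.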
